A study of Mus musculus with 8 samples.

Results

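The suppressors of cytokine signalling form a family of 8 genes in the mouse, Cish and Socs1 to Socs7, and all 8 were measured here, out of 19938 genes with a named probe set. The members were taken by name, and each is represented by its brightest probe set that the platform annotation assigns to that gene alone. Their transcripts were measured on Affymetrix mogene 1.0 ST arrays, which read many short probes along each gene. One group was myeloid dendritic cells from the bone marrow of femur and tibia, which the series title also calls classical dendritic cells, and the other was classical dendritic cells from spleen. Both were obtained by fluorescence-activated sorting from the same 4 mice, with 1 array per tissue and mouse, so that each group had 4 arrays. All mice were 8 weeks old and of genotype CX3CR1-gfp/+, in which 1 copy of the fractalkine receptor gene carries green fluorescent protein; no group lacked this allele and none was treated. Which surface markers defined the sorting gates is not given in the labels.

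SOCS proteins are feedback inhibitors of the JAK-STAT pathway. A cytokine receptor activates Janus kinases (JAKs), these phosphorylate STAT transcription factors, and STATs switch on some SOCS genes, whose products bind the receptor or kinase through a central SH2 domain and recruit a ubiquitin ligase through the SOCS box at their carboxyl end. CIS (from Cish), SOCS1, SOCS2 and SOCS3 are the classical cytokine-induced members, and SOCS4 to SOCS7 are better known for acting on growth factor and insulin receptors. In dendritic cells SOCS1 restrains responses to interferon gamma, and SOCS2 is known as a gene of maturing cells.

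The promoter letters through which STAT and interferon regulatory factors are known to act are shown here because some members are known to be induced through them. RefSeq windows of 250 bases before to 50 after the gene start (build GRCm38.p6) were at hand for 4 members, Cish, Socs1, Socs3 and Socs4. They were searched for the STAT motif TTCNNNGAA, which reads the same on both strands, and for the interferon regulatory factor motif, GAAA followed after 2 bases of any kind by a second GAAA, on both strands. Capitals mark matches, and each stretch is written 5′ to 3′ on the strand of its gene.
Cish, chr9:107296653-107296682, plus strand: ccagttTTCCTGGAAagTTCTTGGAAatct
Socs3, chr11:117969497-117969535, minus strand: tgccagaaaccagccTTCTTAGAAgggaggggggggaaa
Socs1, chr16:10785589-10785634, minus strand: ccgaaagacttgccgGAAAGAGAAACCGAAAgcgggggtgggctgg
Cish held 2 STAT motifs, at bases 1 to 9 and 12 to 20 of the transcript. Socs3 held 1, from 154 to 146 bases before the start. Socs1 held 2 interferon regulatory factor motifs that overlap each other, from 83 to 74 and from 77 to 68 bases before the start. Neither motif was found in the Socs4 window. Among all 32851 promoter windows of this length, 8.3% held the STAT motif and 3.44% the other, and a match describes letters, not binding.

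Of the 8 members, Socs2 was lower and Socs6 higher in bone marrow, and the other 6 did not pass the test. The test was limma on log2 intensities over all 19938 genes, with Benjamini-Hochberg adjustment and a threshold of 0.05. Differences below are log2 fold changes of marrow minus spleen from this fit, with its standard error (SE) and its adjusted p, from 4 arrays per group. Of all genes, 18.5% passed it, 9.26% higher and 9.2% lower in marrow, beside 2 of the 8 members. The arrays of the groups did not overlap for 2 members, where 20.6% of all genes had no overlap. The median difference was 0.0034 over the members and -0.0071 over all genes. In sorted bulk samples such as these, fewer cells that make a transcript and less of it per cell cannot be told apart.

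For Socs2 and Socs6, whether the brightest probe set also reads a copy of the gene elsewhere in the genome was not tested, and the annotation does not settle it. Among the 8 single-gene probe sets nearest to it in number, 0 carried a gene of the member's own chromosome (RefSeq, GRCm38.p6). For Socs2, a gene of chromosome 10, all 8 carried genes of chromosome 12, and for Socs6, a gene of chromosome 18, all 8 carried genes of chromosome 7. The other Socs2 probe set had 7 of 8 such neighbours on chromosome 10 and the other Socs6 probe sets 4 of 8 on chromosome 18, so their values are given beside the first ones. The probe sets of the other 6 members had 7 or 8 of 8 neighbours on the member's own chromosome.

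**Figure D1:**
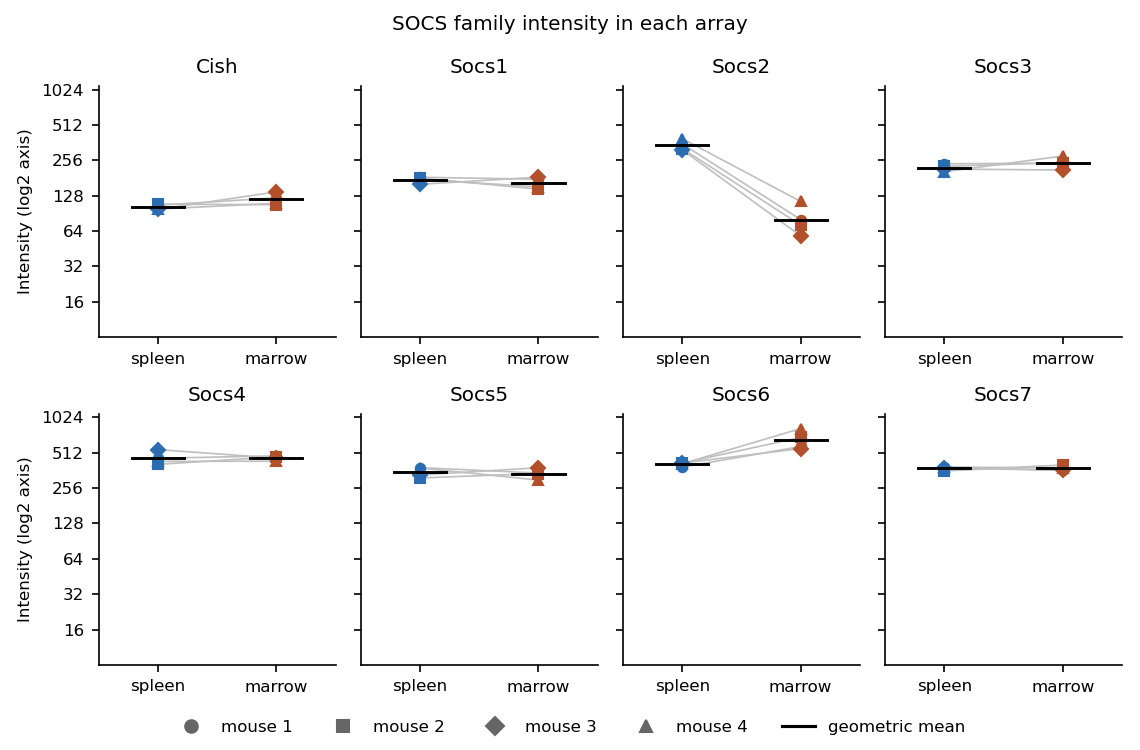
Intensity of each SOCS family member (log2 axis) in the 4 spleen (blue) and 4 marrow (orange) arrays, with marker shapes for the mice, grey lines joining the arrays of a mouse and black bars for geometric means. The Socs2 marrow arrays lie at 58.3 to 114 and its spleen arrays at 315 to 392, the Socs6 groups are apart in the opposite direction, and the other 6 members overlap.

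Socs2, whose protein limits growth hormone receptor signalling and is induced through STAT5, was the member with the largest difference. Its intensity was 80.3, 72.0, 58.3 and 114 in the marrow of mice 1 to 4 and 354, 323, 315 and 392 in the spleen of the same mice. Every spleen array was above every marrow array, and the marrow arrays were more spread out (SD 0.41 on the log2 scale, against 0.14 in spleen, n = 4 each), with replicate 4 the highest. All marrow readings lay below the array medians of 125.1 to 135.0, so they may include background, which would bear on the size of the fold. The geometric means were 78.8 and 345, which made this Socs2 signal 4.37-fold lower in marrow (log2 difference -2.13, SE 0.16, 95% interval -2.49 to -1.77, n = 4 per group, limma adjusted p = 9.8e-07). Within single mice it was between 3.43-fold and 5.41-fold lower, and lower in 4 of 4. An exact two-sided permutation test over the 8 arrays gave p = 0.0286, the smallest that 4 against 4 allows; it does not keep the arrays of a mouse together, and an exact test that does cannot go below 0.125 with 4 pairs. Among all genes that passed the threshold, 56 had a larger fall than this brightest Socs2 probe set.

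Socs2 has a second single-gene probe set, with intensities of 103, 76.0, 66.4 and 69.4 in marrow and 171, 158, 137 and 195 in spleen. Here too every spleen array lay above every marrow array, and the marrow readings again lay below the array medians. The difference was smaller, 2.12-fold (log2 difference -1.08, SE 0.14, adjusted p = 0.000146 in a fit over all 21789 single-gene probe sets). Both probe sets gave the same direction. The size of the Socs2 difference depends on which is taken, and whether their fold changes differ was not tested.

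Socs6, which binds the receptor kinases Kit and Flt3 and insulin receptor signalling proteins, was the member that rose. Its intensity was 579, 691, 556 and 823 in the marrow of mice 1 to 4, and 386, 418, 418 and 413 in the spleen of the same mice. The groups did not overlap, and the spread was again larger in marrow (SD 0.26 against 0.06 on the log2 scale, n = 4 each), with replicate 4 the highest. This Socs6 signal, from the brightest probe set, was 1.60-fold higher in marrow (log2 difference 0.68, SE 0.11, 95% interval 0.43 to 0.93, adjusted p = 0.000813). It was higher in 4 of 4 mice, by 1.33-fold to 2.00-fold, and the exact two-sided permutation test gave p = 0.0286. The rise was modest beside the rest of the array: 734 genes that passed the threshold rose more than this probe set.

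A further probe set annotated to Socs6, whose number lies among genes of chromosome 18, was 1.63-fold higher (log2 difference 0.70, SE 0.17, adjusted p = 0.013), with a larger SE. It read 579, 633, 379 and 491 in marrow and 382, 263, 376 and 255 in spleen. The lowest marrow array, replicate 3, lay just below the highest spleen array, so these groups overlapped by 1 array. The last Socs6 probe set, annotated with a single cDNA clone, stayed between 10.6 and 13.9 on all 8 arrays (log2 difference -0.03, SE 0.09, adjusted p = 0.90).

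**Figure D2:**
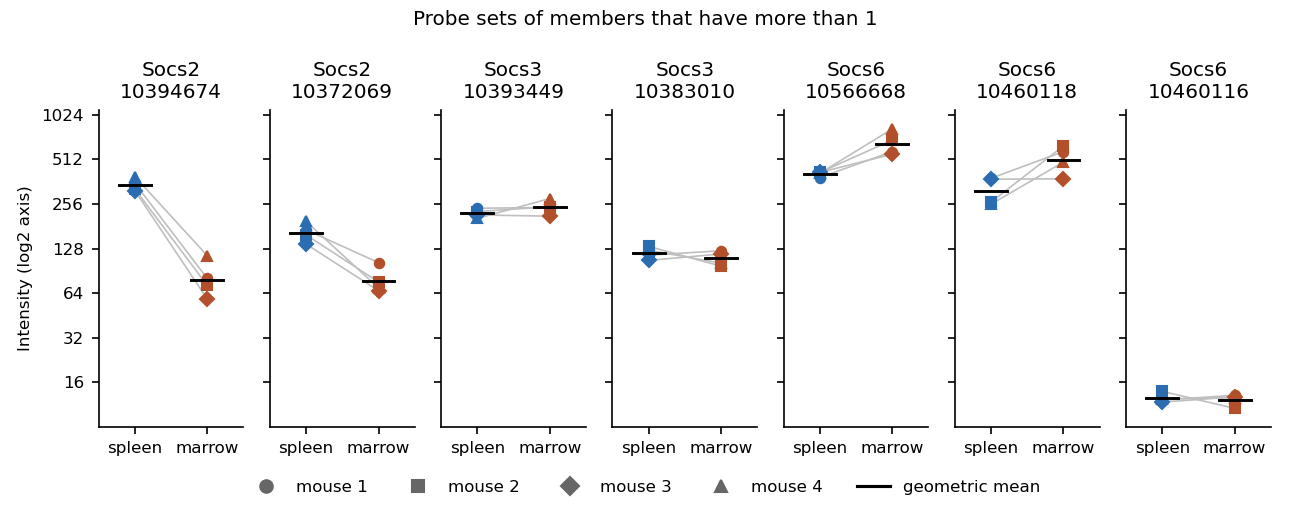
Intensity (log2 axis) of every single-gene probe set of Socs2, Socs3 and Socs6, the members with more than 1, in spleen (blue) and marrow (orange) arrays, with marker shapes for the mice and black bars for geometric means. Both Socs2 probe sets fall in marrow and 2 of the 3 Socs6 probe sets rise, while the third Socs6 probe set stays between 10.6 and 13.9 on every array.

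Cish encodes CIS, which occupies the STAT5 docking sites of cytokine receptors. Its intensity was 123, 107, 138 and 110.5 in marrow and 106, 108, 97.9 and 98.5 in spleen. Only marrow replicate 2 lay within the range of the spleen arrays, and the difference did not pass the threshold (1.16-fold, log2 difference 0.21, SE 0.09, 95% interval 0.01 to 0.41, n = 4 per group, limma unadjusted p = 0.038, adjusted p = 0.15). It was higher in marrow in 3 of 4 mice.

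Socs1 and Socs3 carry, besides the SH2 domain, a short region that blocks the kinase itself, and act on interferon receptors and on the gp130 and G-CSF receptors. Socs1 read 177, 146, 184 and 152 in marrow and 184, 181, 160.1 and 176 in spleen. The groups overlapped (log2 difference -0.09, SE 0.09, 95% interval -0.30 to 0.11, adjusted p = 0.64). Socs3 read 242, 245, 212 and 279 in marrow and 239.6, 228, 216 and 205 in spleen. These groups overlapped as well (0.14, SE 0.09, interval -0.07 to 0.34, adjusted p = 0.44), and the second Socs3 probe set lay on the other side of 0 (-0.12, SE 0.10, adjusted p = 0.55). The intervals reach from 1.23-fold lower in marrow, for Socs1, to 1.27-fold higher, for Socs3.

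Socs4 and Socs5, which are known to act on the epidermal growth factor receptor, did not pass the test. Socs4 read 482, 472, 461 and 434 in marrow and 459.7, 408, 545 and 432 in spleen (log2 difference 0.01, SE 0.09, 95% interval -0.19 to 0.22, adjusted p = 0.97). Socs5 read 344, 341, 381 and 299.9 in marrow and 382, 313, 332 and 379 in spleen (-0.04, SE 0.10, interval -0.25 to 0.17, adjusted p = 0.88). In both genes the arrays of the tissues overlapped. Socs7, the relative of Socs6 that binds insulin receptor substrates, had the narrowest interval of the family. It read 362, 403, 363 and 381 in marrow and 389, 358, 379 and 386 in spleen (-0.0042, SE 0.07, interval -0.17 to 0.16, adjusted p = 0.99). These groups overlapped too, and the interval reached no further than 1.12-fold in either direction.

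**Figure D3:**
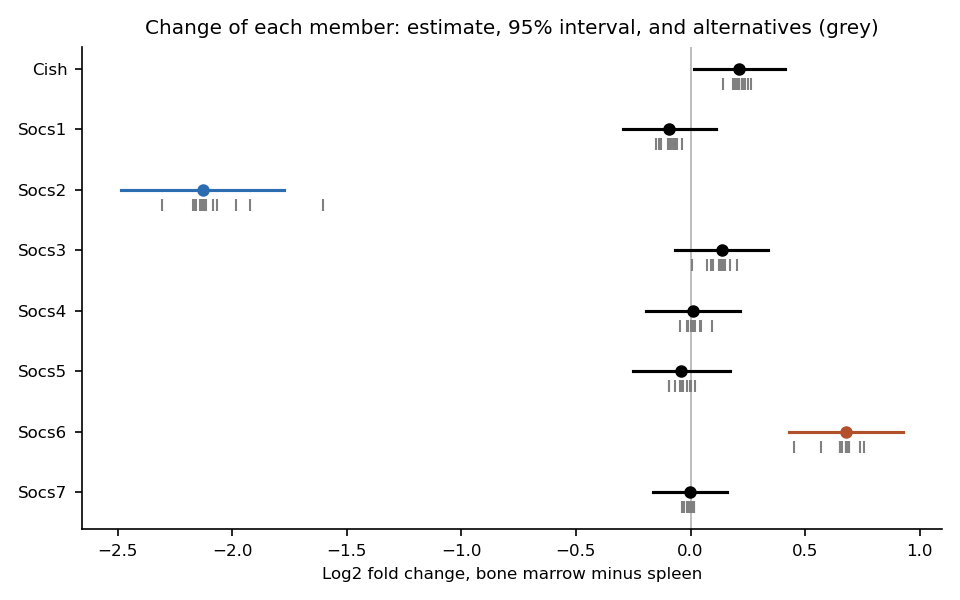
Log2 fold change of each member, marrow minus spleen, as estimate (point) and 95% interval (line) from limma with n = 4 per group, and the values under the 16 other settings (grey ticks). Socs2 at -2.13 (blue) and Socs6 at 0.68 (orange) stand off 0 at every tick, and the other 6 members (black) have estimates between -0.09 and 0.21.

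Whether the cytokine-induced members changed unequally to Socs4 to Socs7 was asked within each array, by the log2 ratio of a member to the mean of those 4 genes. The Socs2 ratio differed by -2.29 on the log2 scale, marrow minus spleen (SD 0.40 in marrow and 0.14 in spleen, n = 4 each, exact two-sided permutation p = 0.0286, adjusted p = 0.114 over the 4 ratios). That adjusted value is the smallest possible when 1 of 4 ratios reaches the smallest p, so no ratio could pass alone. With the arrays paired by mouse the adjusted value for Socs2 was 0.5. No ratio could pass there either, because 4 pairs allow no exact p below 0.125. The differences were -0.25 for Socs1 (exact permutation p = 0.114, adjusted p = 0.23), 0.05 for Cish (p = 0.71, adjusted p = 0.83) and -0.03 for Socs3 (p = 0.83, adjusted p = 0.83). The mean of the 4 genes includes Socs6, which was itself higher in marrow. With Socs6 left out of it, the ratios differed by -2.12 for Socs2 (exact permutation p = 0.0286, adjusted p = 0.114), -0.08 for Socs1 (p = 0.49, adjusted p = 0.49), 0.22 for Cish (p = 0.086, adjusted p = 0.17) and 0.15 for Socs3 (p = 0.29, adjusted p = 0.38), so that the Socs3 difference changed sign.

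Upstream of the SOCS genes, 2 of 9 measured JAK and STAT genes were higher and 2 lower in marrow. Jak2, the kinase of the growth hormone, GM-CSF and interferon gamma receptors, read 737, 767, 655 and 899.8 in marrow and 2048, 2344, 2346 and 2155 in spleen. The groups were far apart, with Jak2 2.92-fold lower in marrow (log2 difference -1.55, SE 0.10, adjusted p = 2.0e-07). Stat4, the factor of the interleukin-12 response, was 2.21-fold lower (-1.14, SE 0.13, adjusted p = 3.4e-05). Stat5b rose 1.34-fold (0.43, SE 0.08, adjusted p = 0.0028) while its paralogue Stat5a read 684 and 717 in the tissues (-0.07, SE 0.10, adjusted p = 0.77). Stat6, of the interleukin-4 response, was higher as well (0.38, SE 0.11, adjusted p = 0.036). Without any single marrow replicate, or without spleen replicate 2 or 4, Stat6 did not pass (adjusted p from 0.055 to 0.096), nor did it with array medians centred (0.054) or with the mouse as a replicate block (0.060). Jak3 had no probe set of its own and was not analysed here.

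Receptor chains that signal through JAKs numbered 31 with a value, of which 13 were higher and 4 lower in marrow. Csf3r, the G-CSF receptor to which SOCS3 binds, was 3.88-fold higher and Lifr, the receptor of leukaemia inhibitory factor, 3.05-fold higher (limma adjusted p = 9.8e-08 and 8.9e-07). The 4 lower chains were Il12rb2 and Il21r (2.40-fold and 2.22-fold), Il6st, the gp130 chain bound by SOCS3 (4324 in spleen and 2392 in marrow, log2 difference -0.85, SE 0.10, n = 4 per group, adjusted p = 5.1e-05), and Il7r (-0.63, SE 0.10, adjusted p = 0.00074). Among 8 receptor tyrosine kinases and insulin receptor substrates 3 were higher and 2 lower. Kit and Flt3, which SOCS6 is known to bind, were lower in marrow, while the insulin receptor gene Insr was higher. Whether Socs6 bears on any of them was not tested. Kit, the stem cell factor receptor, read 229.5, 332, 218 and 416 in marrow and 3979, 3634, 4116 and 2941 in spleen, a 12.6-fold difference (log2 difference -3.66, SE 0.18, adjusted p = 2.2e-08). Flt3 was 2.07-fold lower (-1.05, SE 0.13, adjusted p = 5.6e-05). The higher genes were Csf1r (2.43-fold), Insr (0.65, SE 0.14, adjusted p = 0.0040) and Igf1r (0.62, SE 0.10, adjusted p = 0.00068), and the substrates Irs1 and Irs2 did not pass (adjusted p = 0.98 and 0.071).

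Downstream, none of 8 STAT5 target genes other than the members passed the limma test, with 1 higher and 2 lower at an unadjusted p under 0.05. The gene with the largest difference was Ccnd2, a cyclin, at 1259 in marrow and 1537 in spleen (log2 difference -0.29, SE 0.11, adjusted p = 0.12). Il2ra, a chain of the interleukin-2 receptor, was named after its values were seen: it read 58.0 and 70.6, lower in 4 of 4 mice (log2 difference -0.28, SE 0.10, adjusted p = 0.085), and passed as lower without marrow replicate 4 or without spleen replicate 2. Of 8 STAT3 targets 1 was higher, Nfil3, a transcription factor needed for cDC1 cells (1.19, SE 0.16, adjusted p = 0.00017), and 2 were lower, the corepressors Sbno2 (-0.46, SE 0.11, adjusted p = 0.0092) and Etv3 (-0.36, SE 0.07, adjusted p = 0.0039).

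**Figure D4:**
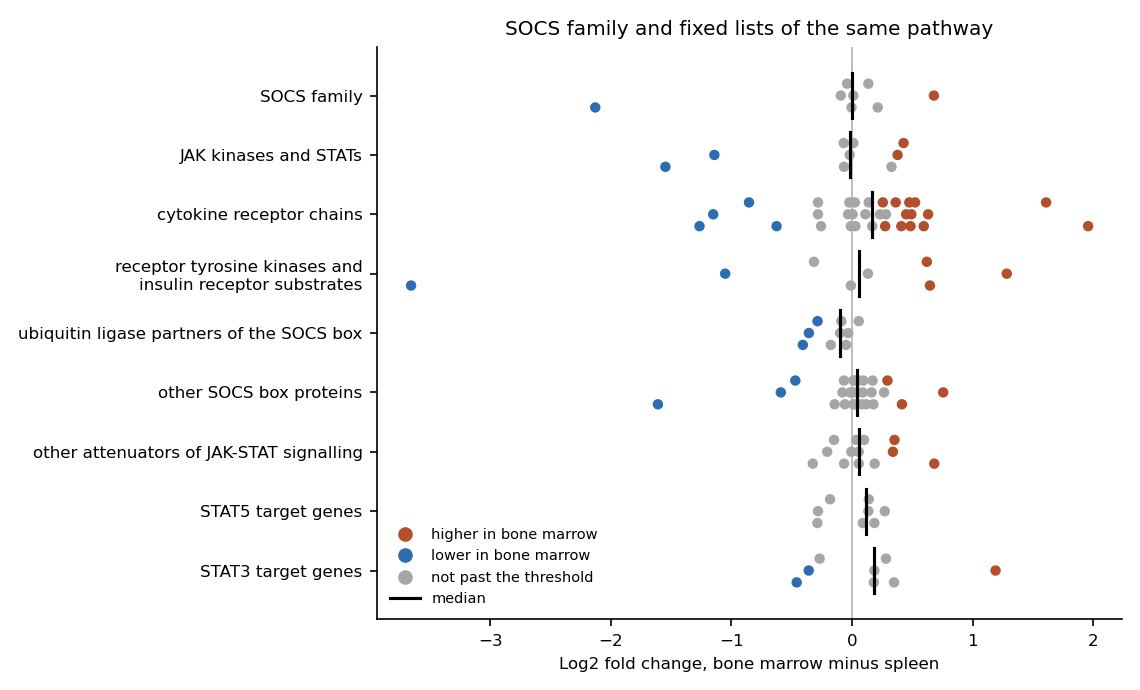
Log2 fold change, marrow minus spleen, of each SOCS family member and each measured gene of the 8 pathway lists, coloured by the limma call at an adjusted p of 0.05, with a black bar for the median of each list. Socs2 at -2.13 stands alone on the low side of its family, the list medians lie between -0.10 and 0.18, and none of the STAT5 target genes is coloured.

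The ubiquitin ligase that the SOCS box recruits showed small differences. Of 9 measured components none was higher by limma (0 at an unadjusted p under 0.05) and 3 were lower, Nedd8, the ubiquitin-like activator of cullins (log2 difference -0.41, SE 0.09, adjusted p = 0.0051), and the elongins Eloc (-0.36, SE 0.11, adjusted p = 0.031) and Elob (-0.29, SE 0.09, adjusted p = 0.047). Eloc did not pass without marrow array 1, 3 or 4 or without any single spleen array (adjusted p from 0.052 to 0.10), and Elob did not pass without marrow array 1 or 3 or without any spleen array (0.052 to 0.15), nor did Eloc (0.060) or Elob (0.080) with array medians centred. Elob did not pass either with the replicate block (0.057) or with probe sets averaged (log2 difference -0.20, adjusted p = 0.11). Cul5, the cullin of this ligase, read 273 in marrow and 293 in spleen (-0.10, SE 0.10, adjusted p = 0.67). Among 26 other genes for SOCS box proteins 3 were higher, Wsb1 (1.69-fold), Asb13 (1.33-fold) and Spsb2 (0.29, SE 0.08, adjusted p = 0.018), and 3 lower, Asb2 (3.05-fold, adjusted p = 1.6e-05), Spsb1 (1.51-fold) and Wsb2 (-0.47, SE 0.10, adjusted p = 0.0036). Spsb2 did not pass without marrow replicate 4 or spleen replicate 1 (adjusted p = 0.053 and 0.059). Of 13 other attenuators of the pathway 3 were higher and none lower by limma (2 lower at an unadjusted p under 0.05). They were the phosphatase Ptpn1, which acts on JAK2 (1.60-fold, adjusted p = 3.9e-05), Cblb, a ubiquitin ligase (1.28-fold, adjusted p = 0.020), and the phosphatase Ptpn11 (0.34, SE 0.10, adjusted p = 0.032). Cblb did not pass without spleen replicate 2 (0.066), and Ptpn11 did not without marrow array 2 or 4 or spleen array 3 or 4 (0.072 to 0.084), with array weights (0.052) or with the replicate block (0.059).

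The genes whose pattern over the 8 arrays was nearest to that of the brightest Socs2 probe set, by root mean square difference of log2 values after centring each gene on its mean, were Carmil1, an actin regulator (difference 0.16), and Kynu, the kynureninase of tryptophan breakdown (0.17). Carmil1 read 303, 279.9, 289.8 and 519.7 in marrow and 1597, 1505, 1558 and 1485 in spleen, with marrow replicate 4 the highest of its group as for Socs2. Nearest to the brightest Socs6 probe set were Lrrc8d, a subunit of volume-regulated anion channels (0.06), and Mx1, an interferon-induced antiviral GTPase (0.07). Mx1 read 357, 427, 331 and 508 in marrow and 243, 259, 264 and 289.6 in spleen, in the same order as Socs6 over the marrow replicates. Because these genes were picked for nearness over the same 8 arrays, a shared order of replicates is not a separate result.

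**Figure D5:**
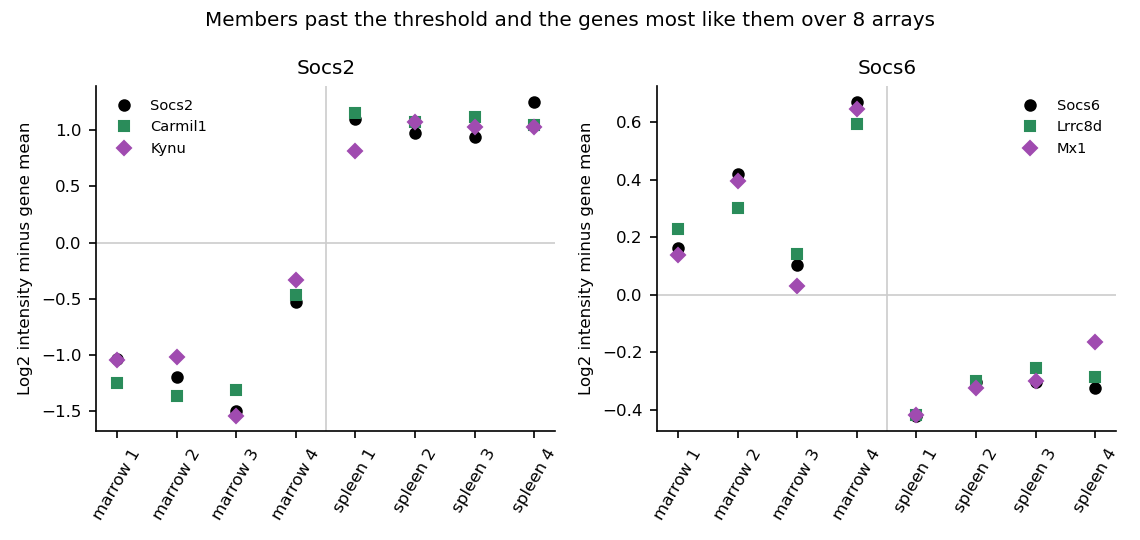
Log2 intensity of Socs2 (left) and Socs6 (right) in each array after subtracting the gene's mean, with the 2 genes nearest to each by root mean square difference. In both panels marrow replicate 4 is the highest of the marrow arrays for all 3 genes, of which 2 were picked for likeness over these arrays.

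Markers of other cells moved with the tissue as well. Of 11 measured markers of mature dendritic cells 9 were lower and none higher in marrow, and their summed intensity was 5309 to 5556 there and 10788 to 11012 in spleen. Fscn1, Ccr7 and Relb were among the lower ones (log2 fold changes -2.77, -1.97 and -1.87). Of 13 monocyte and macrophage markers 12 were higher and none lower (sums 38059 to 49417 and 8811 to 10180). Of 11 neutrophil markers 10 were higher and none lower (sums 21131 to 28907 and 1702 to 2444). Of 6 T and NK cell markers 5 were lower and none higher (sums 1039 to 1382 in marrow and 2826 to 3112 in spleen). Of 5 B cell markers 3 were lower and 1 higher (1177 to 1370.2 and 2790 to 3176). Of 5 markers of basophils, mast cells and eosinophils 4 were higher and none lower (720 to 2075 and 254 to 285). Of 4 erythroid markers 3 were higher and none lower (625 to 1061 and 224 to 377). Of 7 plasmacytoid dendritic cell markers 3 were lower and 1 higher, and of 4 platelet markers 1 was higher and none lower. In the lists given with none in a direction, limma found 0 there at an unadjusted p under 0.05 as well.

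Of the 14 classical dendritic cell markers, which check the label of both groups, 5 were lower and 1 higher in marrow. Their sums overlapped (66618 to 71750 in marrow and 67795 to 71144 in spleen), with the bright class II genes H2-Ab1, H2-Aa and Cd74 between 12043 and 16414 on every array, while their mean log2 intensity did not (10.80 to 11.01 and 11.38 to 11.50). Xcr1, a receptor of cDC1 cells, read 141 in marrow and 1580 in spleen, 11.2-fold lower in marrow, Esam, a marker of a splenic cDC2 subset, was 5.11-fold lower (limma adjusted p = 3.4e-07 and 3.7e-08), and Zbtb46 read 214 and 520 (log2 difference -1.28, SE 0.11, adjusted p = 3.3e-06). The 1 higher marker was Cd209a, at 8152 in marrow and 4031 in spleen (2.02-fold, limma adjusted p = 8.3e-07). The other 8 did not pass, among them Clec9a (1128 in marrow and 1043 in spleen), Batf3 (1676 and 1760) and Irf8 (2428 and 2523). The part of any of these cell types in the Socs2 and Socs6 results was not tested.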

How the data were processed

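The deposited table held 1 linear intensity per probe set and array, made by the authors in Affymetrix Expression Console (version 1.4 in the submitters' processing notes). How they corrected background and normalized is not given in the sources. Array medians lay between 125.1 and 135.0. No detection call came with the intensities, so a dim level may include background, and the number of arrays limits the precision. Per the labels' protocols, label was made from 100 pg to 2 ng of RNA.

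Of 35556 probe sets, 21789 carried exactly 1 gene (annotation of 2016; RefSeq held the gene identifier of 21698 of these and changed 0 symbols). The brightest per gene was kept, no gene was filtered, and limma 3.58.1 (R 4.3.3) was fitted to log2 intensities with lmFit and eBayes and no block. Exact permutation tests took single values. On simulated data for this comparison over 19938 genes, 98% of changes of 1 on the log2 scale and 100% of changes of 2 were recovered. The simulated noise was normal and independent between arrays. Far fewer genes were changed in the simulation than passed the test in the data, where recovery may differ. Changes under 1, the size seen in most members, were not simulated.

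The replicate number stands for the mouse, as the description labels show, so the groups are paired. Deviations from the group means of the arrays of a mouse correlated at 0.10, -0.09, -0.18 and -0.05 across genes for replicates 1 to 4. The main limma fit leaves the pairing by mouse out. Its p-values set a group difference against the spread between arrays within the groups, pooled over both groups.

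Members and lists were chosen with earlier results of these data known, and 1 list of target genes is not reported here. Named genes were all members, up to 2 genes of a list in each direction, ranked by fold among those that passed (or its top gene by fold if none did), and the 2 genes nearest in pattern to each member that passed; others were chosen knowing their values. Alternatives tried were quantile normalization, centred array medians, leaving out the dimmest 40% of genes, averaged probe sets, an intensity trend, array weights, a replicate block, log2(intensity + 16), and leaving out each array. The fit of single probe sets and the ratios without Socs6 were added after seeing the data.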

Additional observations from a re-analysis of the deposited data

Results flagged for a closer look

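No member had an array far from the other 3 of its group. Of 86 groups of 4 arrays among the members and other named genes, 7 had an array whose gap to its nearest neighbour exceeded Dixon's critical share of the range of the group at the 95% level, and chance gives about 1 in 20. Spleen replicate 4 was the lowest for Stat6 (1345, others 1842 to 1960) and for Asb2 (1875, others 2718 to 2773). Spleen replicate 3 was the highest for Stat4 (1189, others 818.7 to 870.3). Bone marrow replicate 4 was the lowest for Insr (1021, others 1210 to 1243) and the highest for Cblb (1579, others 1222 to 1270) and Carmil1 (519.7, others 279.9 to 303). Bone marrow replicate 3 was the lowest for Wsb2 (566.5, others 612.7 to 620.5).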

How the results depend on the processing

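Under all 16 other settings Socs2 stayed lower and Socs6 higher in bone marrow past the threshold, and the other 6 members did not pass. The log2 fold change of Socs2 ran from -2.31 to -1.61 (limma adjusted p up to 1.1e-05) and that of Socs6 from 0.45 to 0.76 (adjusted p up to 0.0034), with the smallest sizes from averaged probe sets. Leaving out 1 array gave -2.31 to -1.98 and 0.57 to 0.76. All of these settings kept the brightest probe sets of Socs2 and Socs6, alone or averaged with the others. Taken alone, the second Socs2 probe set gave -1.08, and the brighter of the other Socs6 probe sets gave 0.70. Among members that did not pass, the sign turned for Socs7 with centred medians (0.0052) and, on leaving out 1 array, for Socs4 (-0.045 to 0.094), Socs5 (-0.096 to 0.020) and Socs7 (-0.036 to 0.016), and in single probe sets for Socs3 (-0.12) and the dim Socs6 probe set (-0.033). The ratios of Cish (-0.030 to 0.12) and Socs3 (-0.085 to 0.031) also crossed 0 when 1 array was left out, and that of Socs3 without Socs6 in its reference (0.147). With the mouse as a replicate block 1717 genes were higher and 1661 lower, against 1846 and 1835 without it, and no member's call changed. Leaving out 1 array gave 1608 to 1759 higher and 1468 to 1820 lower genes. Counts of lists moved by over 1.5 times for higher JAK and STAT genes (1 with centred medians or the replicate block, 1 to 3 without 1 array), lower ligase components (1 with centred medians, 1 to 3 without 1 array), and lower attenuators and lower STAT5 targets (0 to 1 without 1 array). Causes were not tested.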
